A study of Mus musculus with 6 samples.

Results

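The 9 genes described here encode the signalling chains of the T cell receptor (Cd3d, Cd3e, Cd3g and Cd247), the 2 chains of the CD8 co-receptor (Cd8a and Cd8b1), and 3 proteins that act first when the receptor binds its ligand (Lck, Zap70 and Lat). They were chosen by gene symbol, and all 9 are among the 17744 genes of the authors' table. All 9 passed the filter on low values, an FPKM of at least 1 in 3 or more libraries. FPKM is the number of sequenced fragments scaled to gene length and library size.

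CD8 T cells were sorted from mouse spleen by flow cytometry as CD45+ CD3+ CD8a+ cells and profiled by RNA-seq in 6 libraries. The 3 control libraries carry the genotype wt and the treatment control. The 3 libraries here called ultrasound 1, 2 and 3 carry fus irradiation as treatment, where fus stands for focused ultrasound, and the genotype field repeats the treatment. Strain, age, dose, interval after treatment, batch and the number of animals behind each library are not stated in the labels, so p-values measure the spread between libraries, which may be technical. Cells were sequenced after their purity by flow cytometry had passed the submitters' limit. The series title names the spleen as the organ treated and immune activation as the subject.

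A T cell receptor recognises peptide on an MHC molecule through its alpha and beta chains, which have almost no cytoplasmic part of their own. The CD3 gamma, delta and epsilon chains and the zeta chain (Cd247) carry the tyrosine motifs that pass the signal on. CD8 binds MHC class I and brings the kinase Lck to the receptor, Lck phosphorylates these motifs, Zap70 docks on them, and Zap70 phosphorylates the membrane adaptor Lat, on which the downstream complex assembles. Because nearly every mature CD8 T cell transcribes these genes, they are also used here as a T cell reference level. Other cells can express some of them, such as Cd8a in some dendritic cells, so this level need not come from T cells alone.

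Libraries held 35024080 to 38113103 recovered reads, of which 0.401% to 0.498% fell on the 9 genes, or 7505 to 40834 reads per gene and library. Ultrasound 2 and ultrasound 3 stand apart from the other 4 libraries: mitochondrial genes took 0.954% and 0.937% of their reads, against 2.05% to 2.70% in the controls against 2.19% in ultrasound 1. Each result below that rests on this split is given for ultrasound 1 separately. The reads of other cell types also differ between libraries, as described with the reference level.

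By RefSeq on GRCm38.p6, the same assembly version as the mm10 build named in the submitters' processing notes, Cd3g (chr9:44969572-44980431, minus strand), Cd3d (chr9:44981769-44987052, plus strand) and Cd3e (chr9:44998735-45009663, minus strand) lie within 40092 bases. Cd3g and Cd3d are transcribed away from each other, with 1338 bases between them. Cd8b1 (chr6:71322788-71337492) and Cd8a (chr6:71373427-71379171) lie 35935 bases apart. The others are single loci, Cd247 at chr1:165779952-165871153, Zap70 at chr1:36761798-36782821, Lck at chr4:129548344-129573641 and Lat at chr7:126363827-126369705. In GENCODE M21, exons of Pou2f1 and Gm16565 overlap 3213 of the 5329 exonic bases of Cd247. The authors' FPKM of Cd247 was scaled to 6970 bases, more than these 5329, so the overlap in their gene model is not known. Whether the authors' counting used strand is not given in the sources used here, so the level of Cd247 is uncertain. Smaller overlaps were found for Cd3e (Gm48719, 135 of 4080 exonic bases), Lat (Mir7058, 75 of 2767) and Lck (Mir8119, 25 of 2929). The FPKM of Cd3e and Cd3g was scaled to 1517 and 1023 bases, fewer than their 4080 and 3269 exonic bases in GENCODE M21.

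The 250 bases upstream of the transcript start used in the RefSeq promoter table are shown for the 3 neighbouring CD3 genes, because the level of Cd3e relative to Cd3d and Cd3g was higher in ultrasound 2 and 3 than in any control, and for Lat, which was lower in all ultrasound libraries. RefSeq promoters matched 8 of the 9 genes, with 11 windows in all. Each sequence runs 5′ to 3′ on the strand of its gene, and capitals mark matches on either strand to AGGAAG, a core bound by ETS factors, or to CAGNTG, a form of the E-box bound by E proteins.
Cd3g, chr9:44980432-44980681, minus strand: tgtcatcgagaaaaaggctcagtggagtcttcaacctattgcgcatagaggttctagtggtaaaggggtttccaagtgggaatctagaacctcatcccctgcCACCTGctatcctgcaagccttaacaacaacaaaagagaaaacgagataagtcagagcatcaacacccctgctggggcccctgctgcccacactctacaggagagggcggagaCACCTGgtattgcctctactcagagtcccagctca
Cd3d, chr9:44981536-44981785, plus strand: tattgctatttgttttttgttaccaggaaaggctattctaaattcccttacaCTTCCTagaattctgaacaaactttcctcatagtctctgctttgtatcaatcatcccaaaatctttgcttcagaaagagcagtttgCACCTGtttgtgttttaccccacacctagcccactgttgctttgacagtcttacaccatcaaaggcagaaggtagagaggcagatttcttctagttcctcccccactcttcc
Cd3e, chr9:45009612-45009861, minus strand: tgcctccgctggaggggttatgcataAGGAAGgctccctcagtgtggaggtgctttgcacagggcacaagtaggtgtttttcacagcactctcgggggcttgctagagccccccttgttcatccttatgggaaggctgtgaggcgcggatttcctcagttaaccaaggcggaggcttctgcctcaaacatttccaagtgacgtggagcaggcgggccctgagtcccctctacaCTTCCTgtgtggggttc
Lat, chr7:126369569-126369818, minus strand: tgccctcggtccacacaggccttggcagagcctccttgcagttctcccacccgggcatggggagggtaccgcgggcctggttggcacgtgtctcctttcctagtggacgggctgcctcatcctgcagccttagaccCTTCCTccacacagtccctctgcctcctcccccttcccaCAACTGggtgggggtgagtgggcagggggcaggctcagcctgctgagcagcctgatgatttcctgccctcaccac
The Cd3e window holds 2 matches to AGGAAG, starting 224 and 17 bases before the transcript start of that window, and no CAGNTG. The Cd3g window holds 2 matches to CAGNTG, at 148 and 35 bases, and no AGGAAG, while those of Cd3d and Lat hold 1 of each. No match overlaps another in these 4 windows. The windows of Cd3d, Cd3e and Lat reach into the gene spans given above, which begin further upstream. The Cd3e match at 17 bases and the Lat matches lie inside those spans. Among all 32851 windows of this length, 29.5% hold AGGAAG and 44.8% hold CAGNTG, and of the 11 windows of these genes 8 hold the first and 7 the second. The other motifs searched were TGTGGT, for RUNX factors, and TATAAA, the TATA box. TGTGGT is in 2 of the 11 windows and 14.0% of all windows, and TATAAA in 0 of the 11 and 12.4% of all. These are letter matches and were not tested for binding.

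In the controls the levels per length ran from Cd8b1 at the top to Cd247 at the bottom. Cd8b1 stood at 541 ± 31.9 FPKM (SD, n = 3), followed by Cd3g at 416 ± 0.223 and Lck at 390 ± 14.3. Lat and Cd8a followed at 309 ± 16.2 and 302 ± 14.5 FPKM, and their control libraries overlapped. Cd3d and Cd3e, at 211 ± 10.3 and 197 ± 10.5 FPKM, also overlapped. Zap70 stood at 86.0 ± 6.93 and Cd247 at 40.2 ± 3.65 FPKM. All but these last 2 ranked among the 262 most abundant of the 17744 genes by mean control FPKM. The FPKM of Cd247 was scaled to a length of 6970 bases, against 1023 to 3130 for the other 8 genes, which bears on its place in this order.

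The main comparison asked whether these genes differ between ultrasound and control libraries. None of the 9 passed an adjusted p of 0.05 in limma (Benjamini-Hochberg over 10655 genes tested), where 8.11% of all genes tested did, and 1 of 9, Lat, had an unadjusted p under 0.05, where 31.2% of all genes did. The log2 changes ran from -0.24 to 0.31 with a median of -0.10, beside a median of 0.09 over all genes tested, and 6 of 9 were negative. Voom on recovered reads also called 0 of 9, where it called 8.16% of all genes. The authors' deposited table gives q under 0.05 to 1 of 9, Lat, where 12.3% of its 17744 genes have such a q (4.98% with a lower level), and to no member a fold of 1.5 with p under 0.05, a rule that 15.5% of its genes meet.

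**Figure D1:**
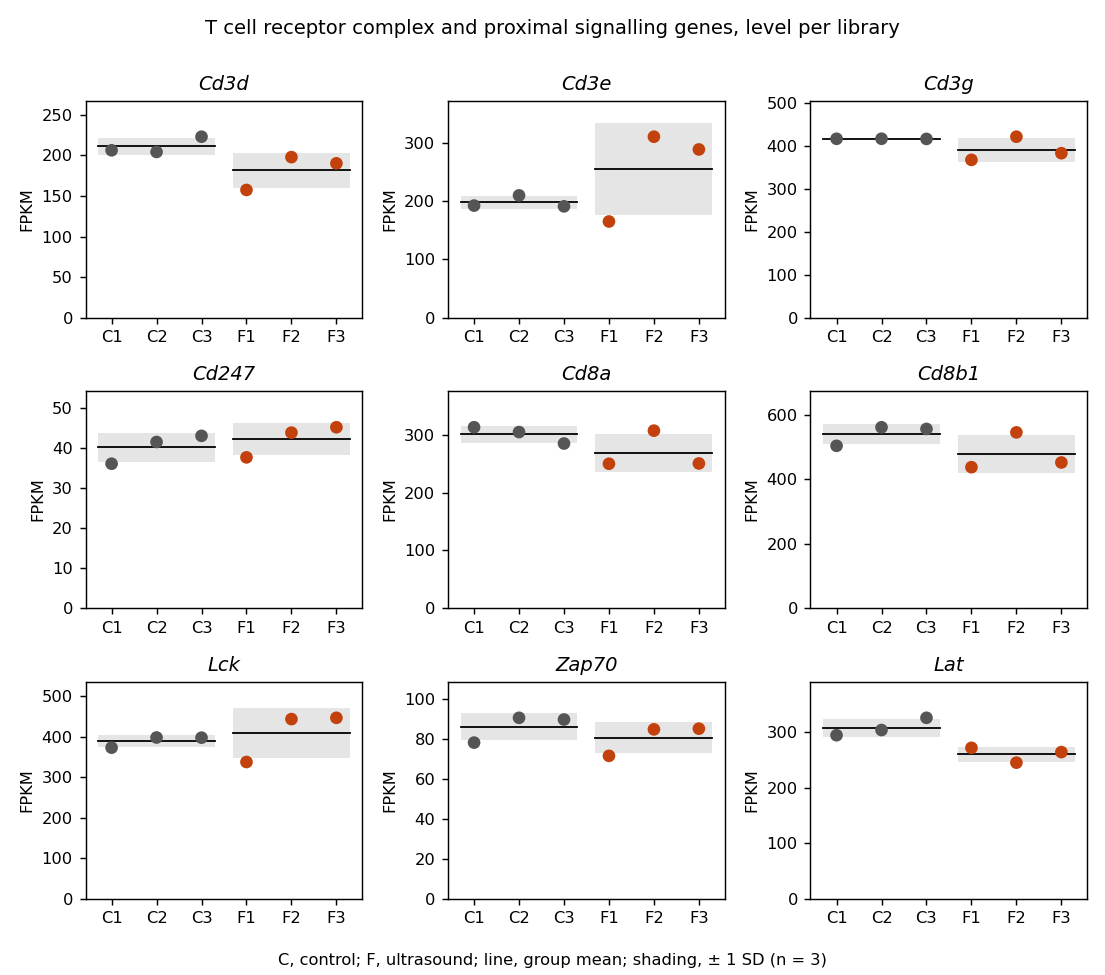
Level of each of the 9 genes in FPKM (vertical axes, from 0) in the 3 control (C1 to C3) and 3 ultrasound (F1 to F3) libraries; lines are group means and shading ± 1 SD. Cd3e is near 300 FPKM in F2 and F3 (309.96 and 288) against 165 in F1, and all 3 ultrasound points of Lat lie under all control points.

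Among the CD3 chains, Cd3e, the epsilon chain that pairs with both delta and gamma, varied most. Its level was 192, 209 and 191 FPKM in controls 1 to 3 and 165, 309.96 and 288 FPKM in ultrasound 1 to 3. Ultrasound 1 lay below every control and ultrasound 2 and 3 lay above every control, so the groups overlapped. The log2 change was 0.31 (95% interval -0.25 to 0.87, limma adjusted p 0.376). Without ultrasound 1 it was 0.60 (limma adjusted p 0.00102), in a fit that called 53.6% of all genes tested (33.8% higher and 19.9% lower). That fit called 3 of 9 members, Cd3e and Lck higher and Lat lower. For ultrasound 1 against the controls, with a term for the other 2, the change of Cd3e was -0.26 (limma adjusted p 0.177), and 0 of 9 members passed where 1.41% of all genes did. At an unadjusted p under 0.05 there were 5 of 9, where 22.1% of all genes were. This comparison sets 1 library against 3, and its spread comes from the other libraries, so ultrasound 1 is assumed to vary as they do.

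Cd3d, the delta chain, stood at 206, 204 and 223 FPKM in the controls and at 157, 198 and 190 in ultrasound 1 to 3, and every ultrasound library lay under every control. The log2 change was -0.22 (95% interval -0.49 to 0.05, limma adjusted p 0.222). Cd3g, the gamma chain, stood at 416, 416 and 415 FPKM in the controls and at 367, 421 and 382 in ultrasound 1 to 3. The control values of Cd3g were nearly equal, and ultrasound 2 lay above them while the other 2 lay below. Its log2 change was -0.09 (95% interval -0.30 to 0.11, limma adjusted p 0.469).

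Cd247, the zeta chain, stood at 36.04, 41.5 and 43.0 FPKM in the controls and at 37.6, 43.8 and 45.1 in ultrasound 1 to 3. The groups overlapped, with a log2 change of 0.07 (95% interval -0.19 to 0.33, limma adjusted p 0.680), which turned to -0.05 with median-of-ratios scaling.

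Neither co-receptor chain passed the test. Cd8a, the chain found in both the alpha-alpha and the alpha-beta dimer, stood at 314, 306 and 286 FPKM in the controls and at 251, 308 and 251 in ultrasound 1 to 3. Cd8b1, which forms the alpha-beta dimer of conventional CD8 T cells, stood at 504, 562 and 556 FPKM in the controls and at 438, 546 and 452 in ultrasound 1 to 3. For both genes ultrasound 1 and 3 lay below every control and ultrasound 2 lay among the controls. The log2 changes were -0.17 for Cd8a (95% interval -0.43 to 0.10, limma adjusted p 0.326) and -0.18 for Cd8b1 (95% interval -0.45 to 0.09, limma adjusted p 0.297).

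Of the kinases, Lck, the Src family kinase bound to CD8, stood at 373, 398 and 398 FPKM in the controls and at 338, 444 and 447 in ultrasound 1 to 3. As for Cd3e, ultrasound 1 lay below and ultrasound 2 and 3 above every control. The log2 change was 0.06 (95% interval -0.25 to 0.37, limma adjusted p 0.762), and it turned to -0.07 with median-of-ratios scaling. Without ultrasound 1 it was 0.19 (limma adjusted p 0.0448), in the fit that called 53.6% of all genes tested. Zap70, the kinase that binds phosphorylated CD3 and zeta motifs, stood at 78.0, 90.4 and 89.6 FPKM in the controls and at 71.4, 84.6 and 85.0 in ultrasound 1 to 3. Ultrasound 2 and 3 lay within the controls, and the log2 change was -0.10 (95% interval -0.36 to 0.16, limma adjusted p 0.544).

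Lat, the adaptor phosphorylated by Zap70, was the member with the smallest p. It stood at 295, 304 and 326 FPKM in the controls and at 272, 246 and 265 in ultrasound 1 to 3. All ultrasound libraries lay under all controls. The log2 change was -0.24 with standard error 0.09 (95% interval -0.46 to -0.03, unadjusted p 0.0318, limma adjusted p 0.128). Without ultrasound 1 it was -0.27 (limma adjusted p 0.0201), in the fit that called 53.6% of all genes tested. With any other library left out, its limma adjusted p was 0.219 to 0.371. The authors' deposited table gives -0.37 with q 0.0155.

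Only Cd3d and Lat had groups that did not overlap, both lower in ultrasound, which makes 2 of 9, where 8.96% of all genes tested were lower without overlap. None was higher without overlap, where 25.9% of all genes were. With median-of-ratios scaling, which moves the median change of all genes from 0.09 to -0.02, Cd3g, Cd8a and Cd8b1 joined them, which makes 5 of 9, where 19.4% of all genes were lower without overlap and 15.2% higher. Under that scaling none of the 9 passed the adjusted threshold in limma, where 4.39% of all genes did (2.63% higher and 1.76% lower), and 5 had an unadjusted p under 0.05, where 30.6% of all genes did.

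**Figure D2:**
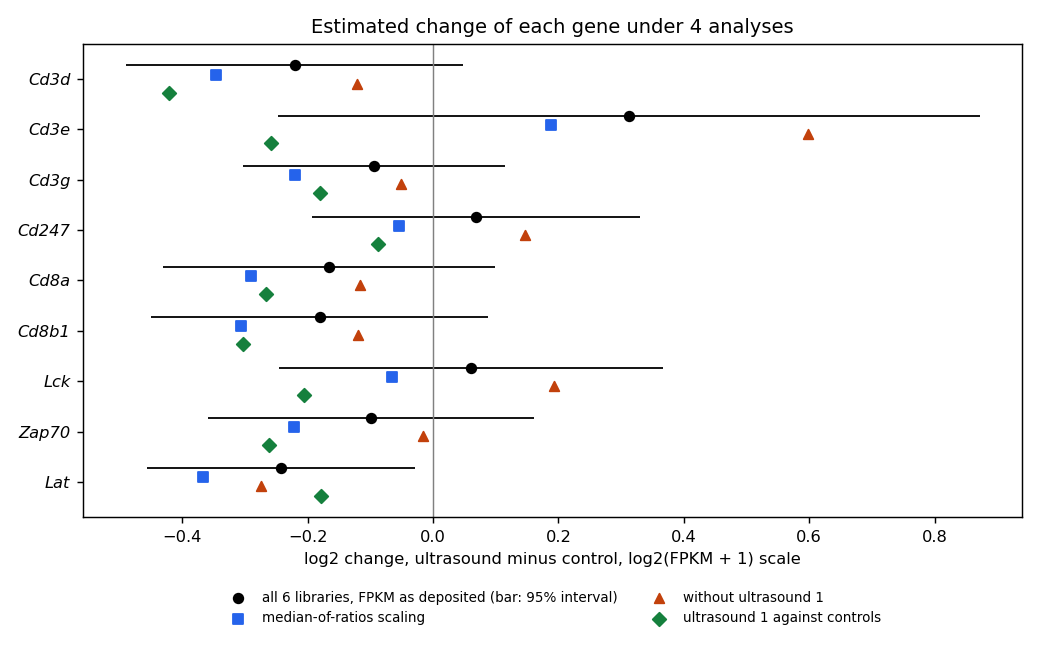
Log2 change, ultrasound minus control, on the log2(FPKM + 1) scale (horizontal axis) for each gene under 4 analyses; black points with bars are the main limma estimates with 95% intervals. Of the main intervals, that of Lat alone excludes 0, and the estimates of Cd3e run from -0.26 for ultrasound 1 to 0.60 without it.

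The ratio of 2 FPKM values within a library does not change with library scaling. Tests used log2 ratios with 1 added to each FPKM, and the plain ratios are printed without it. Over 10 such ratios, tested with a two-sided exact permutation test whose smallest possible p is 0.1 for 3 libraries against 3, none could pass 0.05, and the adjusted p was 0.429 or more. Cd3d to Cd3e was the ratio whose groups did not overlap. There were 1.08, 0.976 and 1.17 units of Cd3d FPKM per unit of Cd3e in the controls against 0.956, 0.639 and 0.660 in ultrasound 1 to 3. On the log2 scale the mean ratio went from 0.10 ± 0.13 to -0.43 ± 0.32 (SD, n = 3 each; exact permutation p = 0.1, adjusted over the 10 ratios 0.429). The control-sized value of ultrasound 1 lay just under the lowest control, and the 2 low values are those of the libraries that stand apart.

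The other 7 ratios to Cd3e overlapped between the groups, and in each the 2 lowest libraries were ultrasound 2 and 3. Cd3g per Cd3e was 2.17, 1.99 and 2.18 in the controls, 2.23 in ultrasound 1 and 1.36 and 1.33 in ultrasound 2 and 3. Lat per Cd3e was 1.54, 1.45 and 1.71 in the controls, 1.65 in ultrasound 1 and 0.792 and 0.918 in ultrasound 2 and 3. All 8 ratios share Cd3e as denominator and so do not count as separate observations. With Cd3g as denominator, a choice made after these values were seen, Cd3e stood at 0.462, 0.504 and 0.459 per unit of Cd3g in the controls and at 0.449, 0.737 and 0.754 in ultrasound 1 to 3, and no ratio to Cd3g separated the groups.

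Cd8b1 to Cd8a lay within the range of the controls in each ultrasound library. Cd8b1 per Cd8a was 1.61, 1.84 and 1.95 in the controls against 1.75, 1.77 and 1.80 in ultrasound 1 to 3, a log2 difference of -0.01 (exact permutation p = 0.9). Zap70 per Lck was 0.209, 0.227 and 0.225 in the controls against 0.211, 0.191 and 0.190 in ultrasound 1 to 3, so ultrasound 2 and 3 lay under every control and ultrasound 1 among them (log2 difference -0.16, exact permutation p = 0.2).

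**Figure D3:**
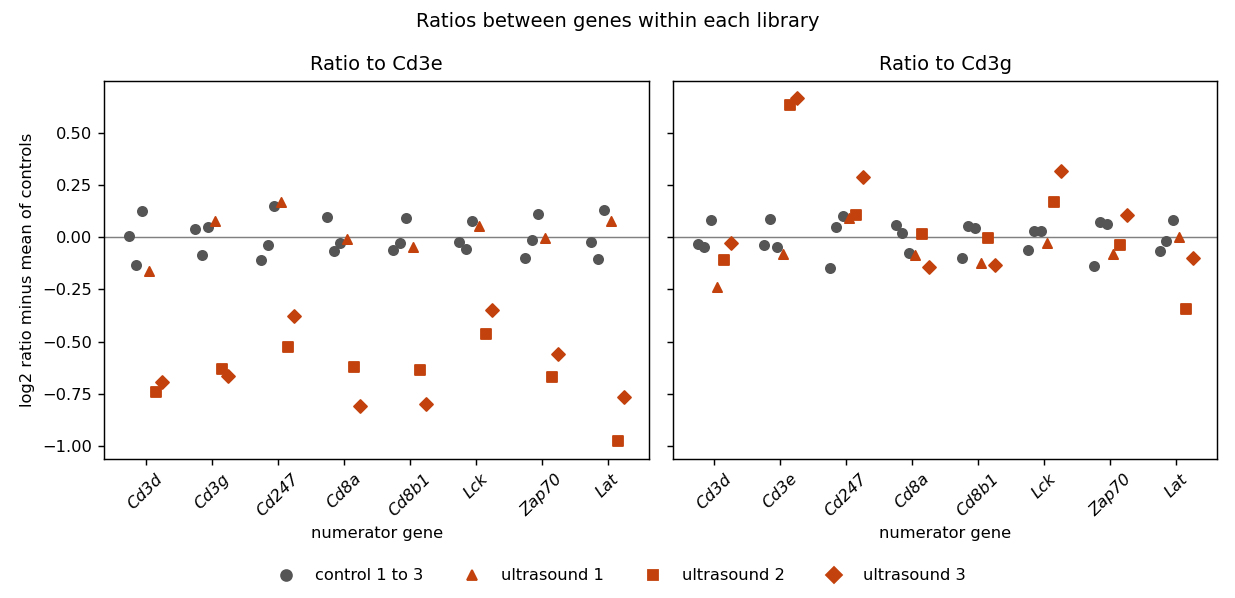
Log2 ratio of each gene to Cd3e (left) and to Cd3g (right) in every library, minus the mean of the controls (vertical axis). Ultrasound 2 and 3 lie below the controls for all 8 ratios to Cd3e, while with Cd3g as denominator Cd3e itself lies highest in these 2 libraries.

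Correlations of log2 levels across the 6 libraries, given as a description, ranged widely between the members. Cd3g correlated with Cd8a and Cd8b1 at r = 0.93 each and with Cd3d at 0.87, whereas Cd3e correlated with Lck at 0.94 and Lck with Cd247 at 0.86. Cd3e with Cd3d came to 0.21 and Cd3e with Lat to -0.66. Zap70 lay between, at 0.80 with Cd3d, 0.76 with Cd8b1, 0.72 with Cd247 and 0.70 with Lck. All points share 6 libraries and their scaling, and the split of ultrasound 2 and 3 enters every value. The 5 other genes most like the mean centred profile of the 9, among 5505 with a mean FPKM of at least 10, were Rgs3, Mien1, Fgd3, Ms4a4c and Spice1, with r from 0.97 to 0.99 over 6 libraries. Each of these 5 was lowest in ultrasound 1, Ms4a4c for example at 24.4 FPKM against 36.2 to 40.5 in the other 5 libraries. The mean profile is itself lowest in ultrasound 1, and these genes were picked for likeness to it, so this is no separate result. The members themselves correlated with that profile at r from 0.09 for Lat to 0.91 for Zap70.

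As a T cell reference level, the summed FPKM of the 9 genes was 2414, 2531 and 2528 in the controls against 2096, 2599.9 and 2406 in ultrasound 1 to 3. Ultrasound 1 was the low library: 8 of 9 members lay below every control there, where 23.1% of all genes tested did, and 9 of 9 did so with median-of-ratios scaling, where 40% of all genes did. Fewer T cells, less of these RNAs per cell and any part that came from other cells cannot be told apart in bulk libraries. The median member lay at -0.26 on the log2 scale relative to the control mean in ultrasound 1, at 0.02 in ultrasound 2 and at -0.12 in ultrasound 3.

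Markers of other cells moved beside these levels, and their part in the results was not tested. The 13 monocyte and macrophage markers summed to 415 to 893 FPKM in the controls and to 2046, 2058 and 3451 in ultrasound 1 to 3. Per unit of the summed CD3 chain genes this was 47.5% to 105% in the controls against 282%, 212% and 381%. By limma 5 of 13 were higher, where 6.55% of all genes tested were. The 10 neutrophil markers summed to 189 to 577 FPKM in the controls and to 2320 in ultrasound 1, with 649 and 682 in ultrasound 2 and 3. By limma 3 of 10 were higher, beside the same 6.55% of all genes. The summed neutrophil level was highest in ultrasound 1, where the T cell reference level was lowest. S100a8 and S100a9, at 725 and 886 FPKM, made up most of that sum, and 3 of the 10 markers were instead higher in ultrasound 2 and 3, Csf3r at 42.3 and 50.8 FPKM against 24.8 in ultrasound 1, Mmp9 at 11.9 and 15.01 against 9.95, and Cxcr2 at 8.13 and 8.62 against 7.90.

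Lymphocyte markers showed another order. The 11 B cell markers summed to 234 to 358 FPKM in the controls, to 172 in ultrasound 1 and to 930 and 806 in ultrasound 2 and 3. Of these markers 0 of 10 tested passed in limma, where 8.11% of all genes tested did. Cd3e and Lck were also highest in ultrasound 2 and 3, the libraries with the lowest mitochondrial share, and no link between these was tested. The 7 NK cell markers summed to 86.0 to 230 FPKM in the controls and to 395, 437 and 652 in ultrasound 1 to 3. Fcer1g and Tyrobp, which myeloid cells share, made up most of each sum. Ncr1, which marks NK cells, was at 0.133 to 0.228 FPKM in the controls and at 0.533, 5.85 and 5.05 in ultrasound 1 to 3. Of 6 NK cell markers tested, 3 were higher by limma, where 6.55% of all genes tested were. The 8 dendritic cell markers summed to 28.4 to 56.6 FPKM in the controls and to 32.3, 104 and 91.7 in ultrasound 1 to 3. Of these, Clec9a, a marker of the dendritic cells that can carry Cd8a, reached 4.17 FPKM at most.

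Cd8a, a sorting marker, stood at 251 FPKM or more in every library against Cd4 at 41.5 to 74.6. The monocyte and macrophage marker Lyz2 lay below Cd8a in controls 2 and 3. It lay above Cd8a in control 1, at 499 against 314 FPKM, and in each ultrasound library, at 1430 or more against 308 or less. The 4 CD4 T cell markers summed to 68.9 to 101 FPKM in the controls and to 106, 99.6 and 133 in ultrasound 1 to 3. Of these, 0 of 4 passed in limma, where 8.11% of all genes tested did. The 6 erythroid markers summed to 82.4 to 132 FPKM in the controls and to 112, 54.5 and 59.3 in ultrasound 1 to 3. Of the 5 gamma delta T cell markers, Sox13 alone was among the 17744 genes, at 0.426 FPKM or less. The others were not measured, so their levels are unknown. No measured marker on these lists was at 0 in all 6 libraries.

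**Figure D4:**
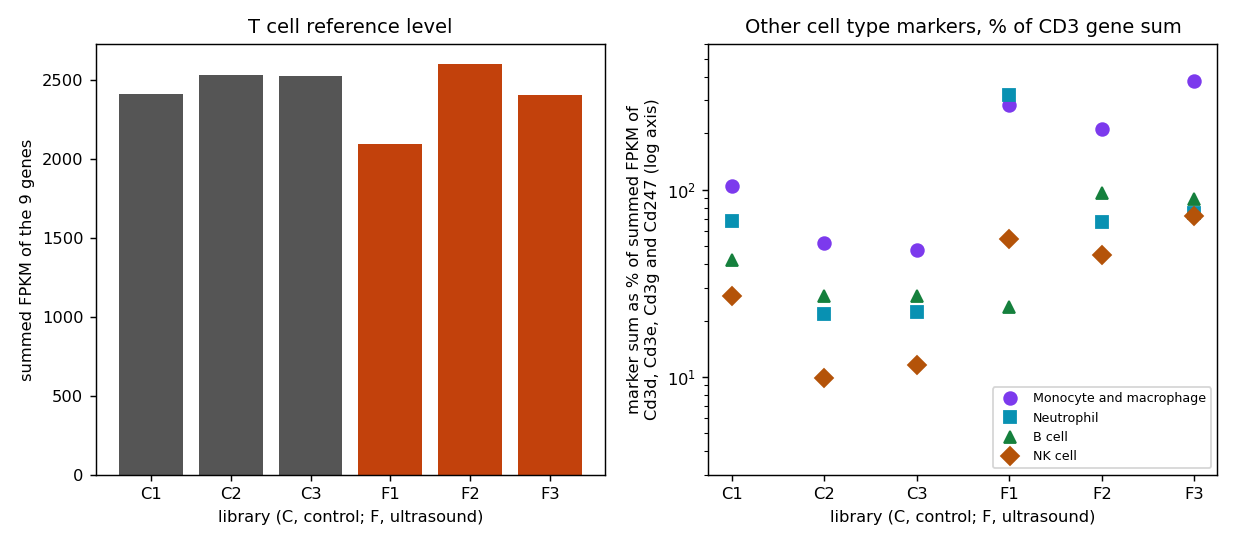
Left, summed FPKM of the 9 genes in each library (C, control; F, ultrasound). Right, summed markers of 4 other cell types as a percentage of the summed FPKM of Cd3d, Cd3e, Cd3g and Cd247, on a log axis; F1 has the lowest bar at 2096 and the highest neutrophil value at 319%.

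Around the members, 42 of 45 other genes of the pathway were measured and tested, and the constant regions Trac, Trbc1 and Trbc2 were not analysed here. By limma 4 of 42 passed an adjusted p of 0.05, 1 higher and 3 lower, beside 6.55% higher and 1.56% lower among all genes tested. The median log2 change of the 42 was -0.10. With median-of-ratios scaling 4 passed, 0 higher and 4 lower, beside 2.63% and 1.76% of all genes. Without ultrasound 1 the count was 23, 9 higher and 14 lower, beside 33.8% and 19.9% of all genes tested. Without control 2, control 3, ultrasound 2 or ultrasound 3 it was 0, with 5 to 8 genes at an unadjusted p under 0.05. The share of all genes in those fits is not given here, so these counts cannot be set against it.

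Of 9 receptor partners and surface molecules, 0 rose, 1 fell and 8 did not pass. The one that fell was Cd28, the main co-stimulatory receptor, from 64.5, 69.9 and 56.7 FPKM in the controls to 35.1, 19.5 and 18.2 in ultrasound 1 to 3. Every ultrasound library lay far below every control, with ultrasound 1 between the controls and the other 2. The log2 change was -1.41 with standard error 0.24 (limma adjusted p 0.0311). Ptprc, which encodes CD45, the phosphatase that keeps Lck ready and one of the sorting markers, is named after its values were seen: it stood at 471, 485 and 417 FPKM in the controls and at 431, 330.04 and 300.2 in ultrasound 1 to 3 (limma adjusted p 0.141).

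Of 21 kinases and adaptors at the receptor, 0 rose, 2 fell and 19 did not pass. Themis, an adaptor that tunes receptor signal strength, fell from 31.6, 37.7 and 35.1 FPKM in the controls to 22.4, 21.5 and 16.5 in ultrasound 1 to 3 (log2 change -0.77, standard error 0.14, limma adjusted p 0.0312). Sh2d2a, the T cell specific adaptor that binds Lck, fell from 55.1, 58.7 and 62.4 FPKM to 35.6, 43.3 and 41.5 (log2 change -0.54, standard error 0.10, limma adjusted p 0.0337). For both, no ultrasound library reached the lowest control. Of 12 downstream effectors, 1 rose, 0 fell and 11 did not pass. Orai1, the pore of the calcium channel opened after receptor signalling, rose from 11.8, 10.1 and 11.4 FPKM in the controls to 15.9, 16.9 and 18.9 in ultrasound 1 to 3 (log2 change 0.59, standard error 0.10, limma adjusted p 0.0311). With median-of-ratios scaling its adjusted p was 0.0565.

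**Figure D5:**
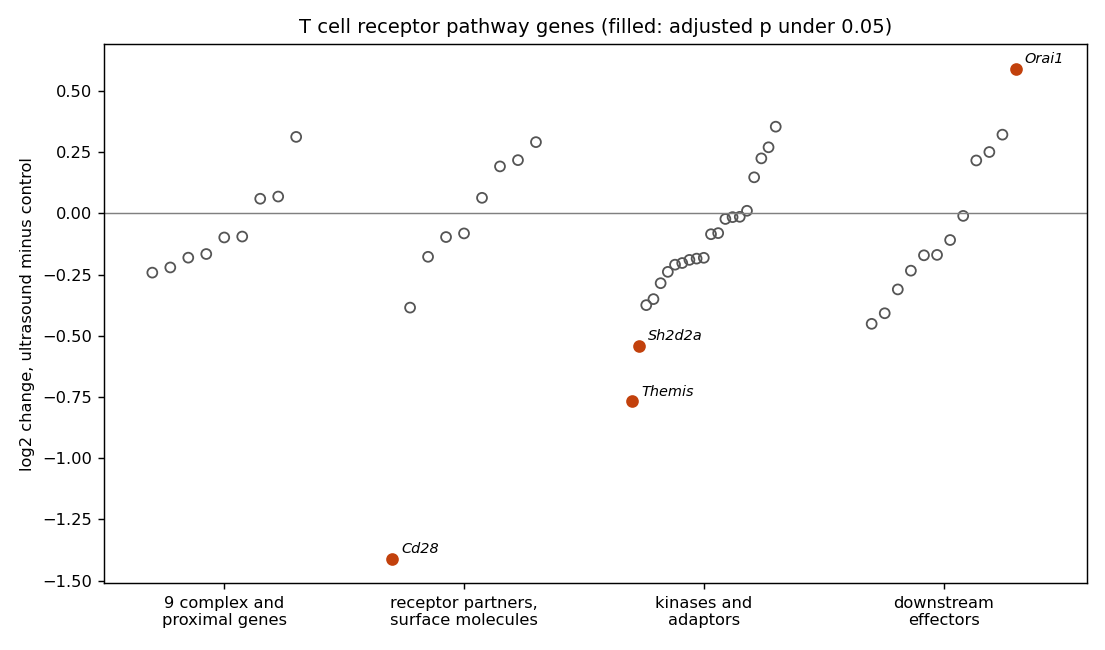
Log2 change, ultrasound minus control (vertical axis), of the 9 genes and of 42 other genes of the pathway in 3 groups; each point is a gene and filled points have a limma adjusted p under 0.05. The 4 filled points are Cd28 at -1.41, Themis at -0.77, Sh2d2a at -0.54 and Orai1 at 0.59, all outside the range of the 9 genes.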

How the data were processed

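Sorted splenic CD8 T cells were profiled by RNA-seq in 3 control and 3 ultrasound libraries, grouped by the sample titles. Per the submitters' processing notes, the authors used HISAT2, HTSeq, DESeq2, R 3.2.0 and the build mm10, with roles not given in the sources used here. The authors deposited FPKM per gene and library. Per the file headers, the authors' table also holds signal columns, the means of DESeq2 normalized counts. It also holds the authors' fold change and log2 fold change, as named in the file headers. Its q-value and p-value columns come from the authors' own test.

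Whole reads were recovered by combining each gene's FPKM values with its deposited group means: of 63998 values under 1000 reads, 100% lay within 0.05 of a whole number. Reads carry no molecular identifiers. The table holds FPKM, not counts, so the substitute test written into the design was used: limma 3.58.1 (trend, robust; R 4.3.3) on log2(FPKM + 1), two-sided, with Benjamini-Hochberg adjustment over the 10655 genes that reached 1 FPKM in 3 libraries or more, threshold 0.05. This scale understates changes of low genes. Ratios used scipy 1.17.1. The limma fit was checked on simulated counts with 199 changed genes tested. Of changes of 1.5-fold it recovered 91.0% at a simulated spread (dispersion) of 0.01 and 1.51% at 0.05. Of changes of 3-fold it recovered 100% at each spread. A gene that did not pass can therefore still have changed by 1.5-fold. Coordinates and promoters are those of RefSeq, GRCm38.p6, and exon overlaps those of GENCODE M21.

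The members, pathway and marker lists were chosen with earlier results of these data known. Named genes are the 9 members, pathway genes with adjusted p under 0.05 (at most 6 rises and 6 falls a list, or its 3 most abundant genes where none passed), and the 5 genes most like the members' mean profile, apart from markers given with their lists. Other settings tried were 2 library scalings, 2 filters, another pseudocount, limma without its robust option, voom on recovered reads, removal of abundant genes, a term for ultrasound 2 and 3, a replicate block, the authors' values and each library left out. No immunoglobulin gene was matched among the abundant genes.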

Additional observations from a re-analysis of the deposited data

How the results depend on the processing

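None of the 9 members passed in limma under 15 of 17 alternatives. The authors' deposited table gave 1 and leaving out 1 library gave 0 to 3, the 3 being Cd3e, Lck and Lat without ultrasound 1. Of the 42 other pathway genes, 4 passed in the main analysis, 2 with a term for ultrasound 2 and 3, 0 without a filter (11 of them at an unadjusted p under 0.05), 15 in the authors' deposited table (1 higher and 14 lower, where 12.3% of all its genes pass and 4.98% are lower) and 0 to 23 with 1 library left out, with 2 without control 1. Dividing by the geometric mean of the 9 members, chosen after seeing the data, gave 4, 1 higher and 3 lower. With that scaling 1415 of all 10655 genes tested were higher and 81 lower, against 698 and 166 in the main analysis. Shares of all genes are not given here for the fit without a filter or those without a control, ultrasound 2 or ultrasound 3. Cd3d, Cd3g, Cd8a, Cd8b1, Zap70 and Lat kept a negative log2 change under all 17 alternatives. Directions reversed for members that had not passed, and the cause was not tested. With median-of-ratios factors, upper-quartile factors, the term for ultrasound 2 and 3 and the authors' table, Cd247 came to -0.054, -0.042, -0.088 and -0.055 and Lck to -0.065, -0.053, -0.21 and -0.055, and with that term Cd3e came to -0.26. With 1 library left out, Cd247 ran from -0.0054 to 0.15, Lck from -0.0091 to 0.19 and the log2 ratio of Cd8b1 to Cd8a from -0.094 to 0.045. Replicate numbers gave no pairing, since libraries sharing a number had deviations with correlations of -0.04, 0.05 and 0.06. Under the replicate block, no gene passed in limma: 0 of 9 members, 0 of 42 pathway genes and 0 of all 10655 tested, with 0, 11 and 30.5% of all genes at an unadjusted p under 0.05. Each member had 7505 reads or more per library, and each group had 3 libraries.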
